A study of Mus musculus with 7 samples.

Results

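5-Formylcytosine (5fC) pulldown was profiled in J1 mouse embryonic stem (ES) cells of strain 129S4/SvJae, and the regions described here are those called 5fC-enriched in siRNA-treated cultures and not in untreated wild-type cultures. A region was kept where the TDG knockdown library EAR003 and both control siRNA libraries, BHAM479 and EAR001, were enriched, and where neither wild-type library, BHAM359 or BHAM470, was. The pieces were thus chosen by the authors' calls of enriched domains in these 5 libraries, while BHAM480 could have any state. The intersection was made base by base on the autosomes, and pieces of at least 200 bp were kept. It gave 19389 siRNA-only pieces spanning 26.4 Mb, out of 19022 regions and 356.5 Mb enriched in the 3 siRNA libraries. Chromosome 8 held 5828 of the pieces (10.5 Mb) and is described apart from the other 13561 (16.0 Mb).

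The 6 pulldown libraries came from 3 conditions with 2 libraries each, which the study describes as biological replicates. In the TDG knockdown (TDG KD) condition (BHAM480 and EAR003) ES cells without feeders were transfected repeatedly, by Lipofectamine, with a pool of siRNAs against Tdg. In the siRNA control condition (BHAM479 and EAR001) cells received a non-targeting siRNA in the same way. Wild-type cells (BHAM359 and BHAM470) received no siRNA and were grown on irradiated mouse embryonic fibroblasts. All libraries were from the same cell line, and 1 genomic input library, from wild-type cells, served as the background of every pulldown. The absence of feeders, the transfection and the siRNA all set the siRNA cultures apart from wild type and cannot be told apart. The prefix of a library's name (BHAM or EAR) splits the siRNA libraries in pairs, while both wild-type libraries carry BHAM. Neither RNA nor protein was measured in these files, so the knockdown and the cell type could not be checked against marker levels. Uniquely placed reads numbered 20.4 to 45.9 M per pulldown library.

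5fC arises when the TET dioxygenases oxidize 5-methylcytosine first to 5-hydroxymethylcytosine and then to 5fC. TDG, a DNA glycosylase, cuts 5fC out, and base excision repair puts an unmodified cytosine in its place. The pulldown couples a biotin-bearing probe to the aldehyde of 5fC and captures the tagged fragments on streptavidin beads, so that it reads relative enrichment and not the amount of 5fC. In mammalian DNA these bases lie mostly at CpG dinucleotides, which are sparse in most of the genome and dense in CpG islands, often at promoters.

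The sequence of the pieces ranged widely in CpG density, and 6 windows of 200 bp are shown to give its extremes, in mm9 coordinates and with each CpG in capitals. The first 3 are the windows upstream of a start site, wholly within a piece outside chromosome 8, that held the most CpG (21, 20 and 19), and the fourth, with 3 CpG, stood at the middle of that ranking. The last 2 are the centres of the widest piece outside chromosome 8 and of the widest piece on it, with 2 and 28 CpG.
Zfp784 upstream, chr7:4990049-4990248, minus strand: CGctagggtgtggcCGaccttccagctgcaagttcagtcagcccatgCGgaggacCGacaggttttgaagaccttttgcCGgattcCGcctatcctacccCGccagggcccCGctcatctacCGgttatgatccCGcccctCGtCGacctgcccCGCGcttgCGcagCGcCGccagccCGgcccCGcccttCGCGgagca
Mtmr14 upstream, chr6:113187637-113187836, plus strand: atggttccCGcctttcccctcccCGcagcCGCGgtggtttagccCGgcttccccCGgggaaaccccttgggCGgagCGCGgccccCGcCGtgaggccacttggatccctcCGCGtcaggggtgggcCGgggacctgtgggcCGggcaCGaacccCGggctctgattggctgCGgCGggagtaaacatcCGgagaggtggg
Adamts7 upstream, chr9:90057616-90057815, plus strand: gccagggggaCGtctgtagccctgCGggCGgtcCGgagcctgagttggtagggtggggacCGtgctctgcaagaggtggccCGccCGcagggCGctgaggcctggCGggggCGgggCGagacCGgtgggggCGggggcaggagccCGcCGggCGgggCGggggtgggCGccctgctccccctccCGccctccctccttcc
Gm11003 upstream, chr11:57651066-57651265, plus strand: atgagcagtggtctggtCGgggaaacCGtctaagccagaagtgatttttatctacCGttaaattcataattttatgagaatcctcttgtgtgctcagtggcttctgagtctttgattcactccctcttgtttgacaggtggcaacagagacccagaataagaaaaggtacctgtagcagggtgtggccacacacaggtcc
Centre of the widest piece outside chromosome 8, chr14:44033895-44034094, plus strand: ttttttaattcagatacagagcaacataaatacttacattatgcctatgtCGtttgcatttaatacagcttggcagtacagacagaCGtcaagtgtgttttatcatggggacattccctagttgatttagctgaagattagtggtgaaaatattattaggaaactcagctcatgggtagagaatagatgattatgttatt
Centre of the widest piece on chromosome 8, chr8:126074667-126074866, plus strand: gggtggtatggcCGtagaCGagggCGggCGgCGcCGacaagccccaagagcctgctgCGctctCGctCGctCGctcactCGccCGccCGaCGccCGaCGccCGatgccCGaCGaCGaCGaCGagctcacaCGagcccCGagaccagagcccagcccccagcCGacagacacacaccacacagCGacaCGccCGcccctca
Of the 73 such upstream windows in pieces, 64 (87.7%) held the dinucleotide CG, which reads the same on either strand, and their median was 3 CpG. Among the 18010 exon-free upstream windows of the same length at genes outside chromosomes 8 and 18, 89.5% held a CpG and the median was 6. The CpG-rich windows above were thus not typical of the set.

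The siRNA-only pieces were a small part of what the 3 siRNA libraries shared, and their share was larger on chromosome 8. They made up 19.4% of the 53.9 Mb of shared siRNA enrichment on chromosome 8 and 5.27% of the 302.6 Mb elsewhere. Outside chromosome 8, 65.4% of that enrichment (197.9 Mb) was also enriched in both wild-type libraries, 25.3% (76.7 Mb) in BHAM470 only and 3.97% (12.0 Mb) in BHAM359 only. The corresponding shares on chromosome 8 were 45.5%, 28.5% and 6.53%. The opposite set, enriched in both wild-type libraries and in none of the 3 siRNA libraries, came to 15707 pieces and 12.2 Mb over all autosomes. Of that set 0.0046 Mb lay on chromosome 8. These states chose the pieces, so their sizes are a description and were not tested.

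Chromosome 8 carried 39.6% of all siRNA-only sequence and 5.24% of autosomal sequence, a ratio of 7.56. Without BHAM470 in the rule its share was 21.8%. Next came chromosome 11, with 9.50% of the siRNA-only sequence and 4.99% of autosomal sequence, a ratio of 1.90. Chromosome 6 held 6.13% of the pieces' sequence and 6.14% of autosomal sequence. On each of the other 16 autosomes the ratio was below 1, from 0.304 on chromosome 3 to 0.808 on chromosome 14. Put as a share of the chromosome, siRNA-only pieces covered 8.39% of chromosome 8, 2.11% of chromosome 11 and 1.11% of chromosome 6. The pieces ran along the whole of chromosome 8: cut into 10 equal parts, it held between 3.99% and 19.6% of its siRNA-only sequence in each.

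**Figure D1:**
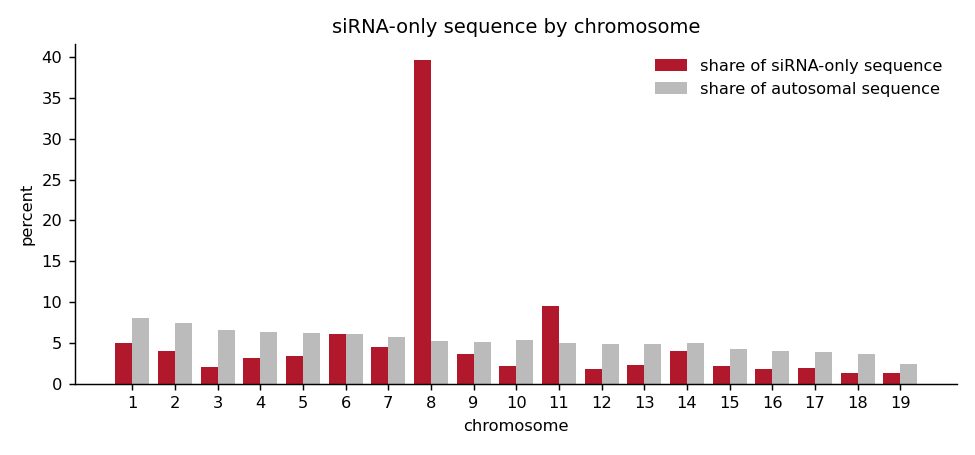
Share of the siRNA-only sequence (red, left bar) and of all autosomal sequence (grey, right bar), in percent, for each autosome. Chromosome 8 holds 39.6% of the siRNA-only sequence against 5.24% of the autosomes, and chromosome 11 is the only other with a clearly taller red bar.

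Chromosome 8 as a whole, and not the pieces alone, read higher in the siRNA libraries. The share of chromosome 8 called enriched was 29.2% in BHAM480, 47.8% in EAR003, 54.4% in BHAM479 and 60.7% in EAR001, against 25.5% in BHAM359 and 34.2% in BHAM470. BHAM480 thus lay between the wild-type libraries by this measure. The background domains of chromosome 8 were compared with those of the other autosomes, in reads per 100 kb per 1000000 uniquely placed reads after subtraction of input. Their difference was 3.77 in BHAM480, 2.24 in EAR003, 3.04 in BHAM479 and 4.38 in EAR001, against -0.52 in BHAM359 and -0.25 in BHAM470. The siRNA libraries averaged 3.36 ± 0.924 (SD, n = 4) and the wild-type libraries -0.382 ± 0.19 (SD, n = 2), a difference of 3.74 with no overlap between the groups. The same contrast had chosen the pieces, so no test is given. On every other autosome the corresponding difference of means lay between -0.88 (chromosome 13) and 0.85 (chromosome 14). On chromosome 11, with the second largest excess of pieces, it was 0.033. Lack of overlap was not particular to chromosome 8. All 4 siRNA libraries also lay above both wild-type libraries on chromosomes 1, 6 and 14, and below both on some others, among them chromosomes 2 and 5. The part of the raised chromosome 8 background in the calls made there was not tested, and neither was the copy number of the chromosome in the cultures, since the input came from wild-type cells.

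**Figure D2:**
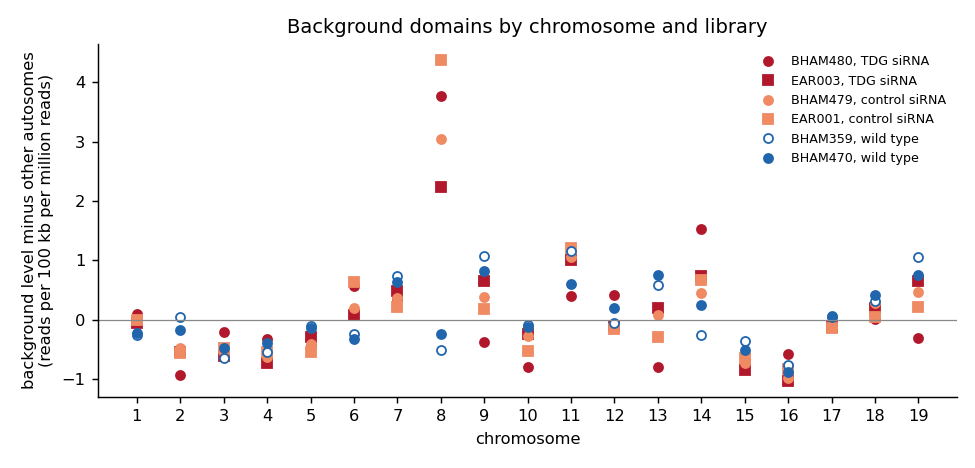
Level of background domains on each autosome minus that on all other autosomes, in reads per 100 kb per 1000000 reads, with 1 point per library (red, TDG KD; orange, siRNA control; blue, wild type). The 4 siRNA libraries lie between 2.24 and 4.38 on chromosome 8, where the wild-type libraries are below 0.

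Most siRNA-only pieces were short, and nearly all bordered sequence enriched in wild type. Outside chromosome 8 their median width was 900 bp (quartiles 500 and 1500 bp), the widest was 37200 bp, and 153 were at least 5000 bp wide. On chromosome 8 the median was 1300 bp (quartiles 600 and 2300 bp), and 305 pieces reached 5000 bp. Outside chromosome 8 the pieces fell within 6565 intersection regions, whose median width was 9800 bp, so that a piece was commonly a stretch of a longer enriched region. A wild-type domain on either side bounded most of them: 8737 pieces (64.4%, 71.5% of the sequence) lay inside a longer intersection region, 4654 (34.3%) at an edge of one, and 170 (1.25%) were a whole region. Of the 13561 pieces, 13403 (98.8%) directly adjoined a wild-type enriched domain, 70 were more than 1000 bp from any and 2 more than 5000 bp. On chromosome 8, 98.1% adjoined a wild-type domain and 18 pieces were more than 5000 bp from any.

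The libraries drew their domains at different grain, which bears on these shapes. BHAM359 was split into 389620 enriched domains, typically narrow (median 700 bp). In the other libraries there were 4901 (BHAM480) to 40121 (EAR003), of median width 5900 bp (EAR003) to 24550 bp (EAR001). Within the pieces outside chromosome 8, the length-weighted median width of the domain behind a value was 60800 bp in BHAM480, 22700 bp in EAR003, 33800 bp in BHAM479 and 71500 bp in EAR001, against 2400 bp in BHAM359 and 14300 bp in BHAM470. A value given here for a short piece was therefore, in the siRNA libraries, the mean over a stretch many times as long. In BHAM359 99.1% of the pieces' sequence was called background and 0.913% had no domain listed. In BHAM470 98.9% was background, 0.764% unconfident and 0.288% unlisted.

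The length limit separated pieces of like level. Outside chromosome 8, 1130 pieces of 200 bp were just long enough and 1194 pieces of 100 bp were left out. The level, defined as the excess over the library's mean in reads per 100 kb per 1000000 reads, was 5.45 in BHAM480, 22.0 in EAR003, 15.1 in BHAM479 and 8.24 in EAR001 at 200 bp, with -13.2 in BHAM359 and -2.39 in BHAM470. At 100 bp it was 4.70, 23.4, 15.7 and 8.38 in the same siRNA libraries, with -14.6 in BHAM359 and -2.21 in BHAM470.

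BHAM480, the TDG KD library that the choice of pieces did not use, was enriched over a minority of their sequence. Outside chromosome 8 it was enriched over 12.0% of the siRNA-only sequence (1.91 of 16.0 Mb), unconfident over 64.4% and background over 23.6%. Of all sequence outside chromosome 8, 5.53% was enriched in BHAM480, and of the sequence that the 3 siRNA libraries shared with both wild-type libraries, 33.9%. The sequence shared with BHAM470 only (23.3%) and with BHAM359 only (13.1%) lay between. By piece, 1525 of 13561 (11.2%) were wholly enriched in BHAM480, 139 partly and 11897 not at all. On chromosome 8, BHAM480 was enriched over 31.0% of the siRNA-only sequence, against 29.2% of the whole chromosome and 76.0% of the sequence shared with both wild-type libraries. The sequence shared there with BHAM470 only stood at 58.6% and that shared with BHAM359 only at 34.2%. The rate in the pieces was thus near that of the whole chromosome, but below that of the shared sequence they mostly adjoin. The whole-chromosome share includes that shared sequence: of 36.4 Mb enriched in BHAM480, 18.6 Mb was shared with both wild-type libraries. BHAM480 was the shallowest library and had the fewest enriched domains, and the part of this in its low shares was not tested.

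**Figure D3:**
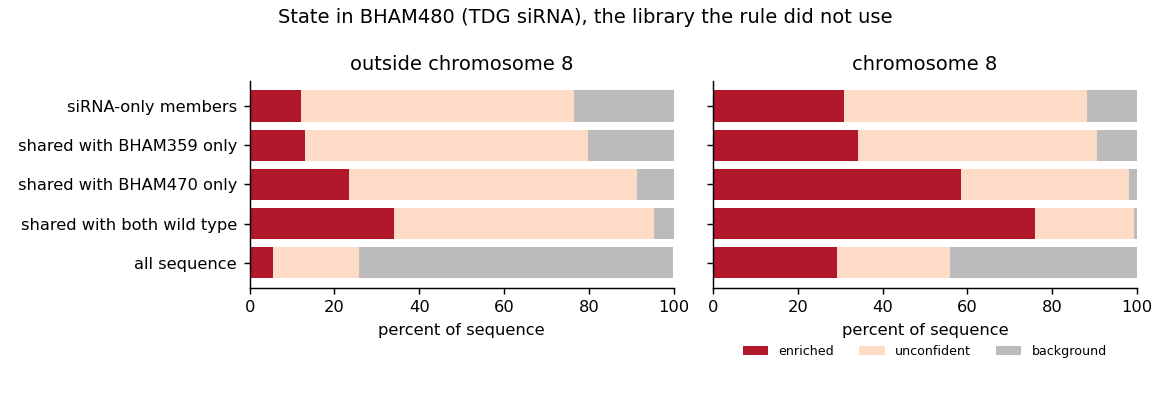
Percent of sequence called enriched, unconfident or background in BHAM480 for the siRNA-only pieces, for the sequence the 3 siRNA libraries shared with wild type, and for all sequence. The pieces are 12.0% enriched outside chromosome 8 and 31.0% on it, in each case far below the sequence shared with both wild-type libraries.

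The levels of the pieces were below those of shared sequence in every siRNA library. Outside chromosome 8 the siRNA-only sequence had a level of 5.42 in BHAM480, 19.5 in EAR003, 14.0 in BHAM479 and 8.04 in EAR001, against -6.86 in BHAM359 and -2.31 in BHAM470. All 4 siRNA libraries lay above 0, which is each library's own mean, and both wild-type libraries below it. This split depended on subtracting that mean, which was 0.793 reads per bin in BHAM359 and at most 0.103 in the others. As deposited, BHAM359 (0.478 reads per bin) lay above EAR001 (0.280) and BHAM480 (-0.166), and BHAM480 lay below BHAM470 (-0.0247). EAR003 (0.639) and BHAM479 (0.514) remained above both wild-type libraries. The deposited score is not scaled for reads. The library mean was highest in BHAM359, the deepest library (45.9 M reads), and lowest in BHAM480 (-0.277), the shallowest (20.4 M). Values as deposited are therefore not comparable between libraries of unlike depth. The sequence shared with both wild-type libraries stood at 10.7 in BHAM480, 25.7 in EAR003, 17.6 in BHAM479 and 9.65 in EAR001, and at 50.4 in BHAM359 and 23.0 in BHAM470. Wild-type levels in the pieces were nevertheless above those of each library's background domains outside chromosome 8, which were -11.3 in BHAM359 and -5.55 in BHAM470. Among single pieces the quartiles were 1.01 and 10.4 in BHAM480, 15.6 and 23.9 in EAR003, 11.1 and 17.2 in BHAM479, and 5.61 and 10.1 in EAR001, against -14.5 and -2.11 in BHAM359 and -5.25 and 1.67 in BHAM470. On chromosome 8 the pieces' level was 10.9 in BHAM480, 21.9 in EAR003, 17.9 in BHAM479 and 13.6 in EAR001, against -8.02 in BHAM359 and -2.71 in BHAM470.

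TDG KD and siRNA control can be set side by side in the pieces only as a description, since BHAM479, EAR001 and EAR003 were selected for enrichment there and BHAM480 was not. The mean level outside chromosome 8 was 12.5 ± 9.95 in TDG KD and 11.04 ± 4.25 in siRNA control (SD, n = 2 each), a difference of 1.41. The TDG KD libraries held the highest and the lowest of the 4 values, so the groups overlapped. Within the BHAM prefix TDG KD minus control was -8.63, and within the EAR prefix it was 11.4. The means on chromosome 8 were 16.4 ± 7.76 in TDG KD and 15.7 ± 3.04 in siRNA control (SD, n = 2 each).

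**Figure D4:**
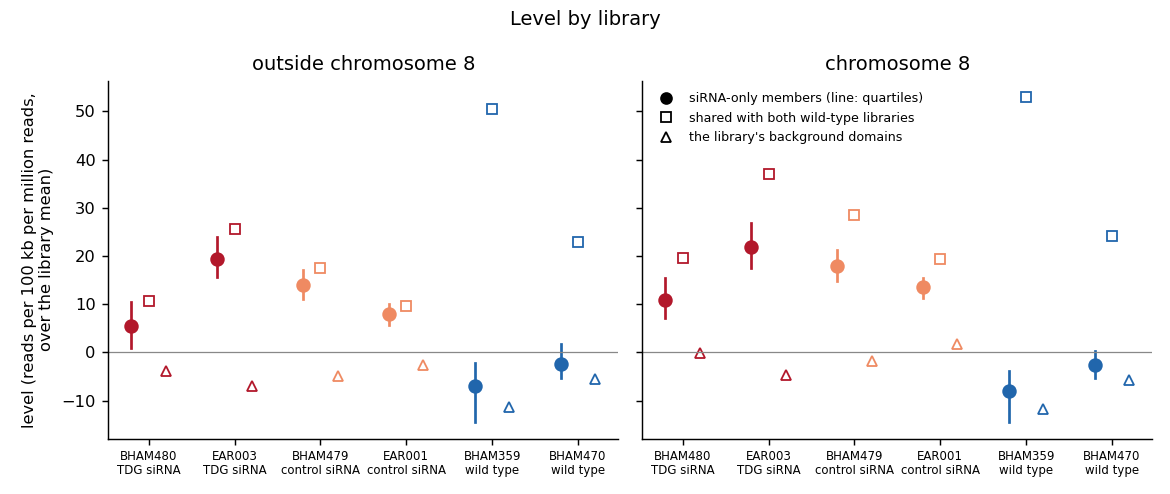
Level by library, in reads per 100 kb per 1000000 reads over the library mean, for siRNA-only pieces (filled circles, with lines for the quartiles of single pieces), for sequence shared with both wild-type libraries (open squares) and for the library's background domains (open triangles). The circles lie between 5.42 and 19.5 in the siRNA libraries outside chromosome 8 and below 0 in wild type, and the 2 TDG KD libraries enclose the 2 control libraries.

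In base composition the siRNA-only pieces lay between all sequence and the sequence shared with wild type. Outside chromosome 8 they held 10.1 CpG per kb and 44.2% GC. The sequence shared with both wild-type libraries held 15.2 CpG per kb and 51.1% GC, and all sequence outside chromosome 8 held 8.48 CpG per kb and 41.9% GC. The ratio of observed to expected CpG was 0.206 in the pieces, 0.233 in the shared sequence and 0.193 in all sequence. Between pieces the density ran from 2.31 CpG per kb (5th percentile) over a median of 9.29 to 20.0 (95th percentile), and 427 pieces had no CpG. Chromosome 8 pieces held 9.14 CpG per kb, near the 9.04 of the whole chromosome.

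CpG islands were scarce in the siRNA-only sequence. Islands took up 0.221% of it outside chromosome 8 and 0.568% of all sequence there, a fold of 0.389, and 132 of 13561 pieces touched an island. In the sequence shared with both wild-type libraries the fold was 3.14, in that shared with BHAM359 only 2.13, and in that shared with BHAM470 only 0.648. Coding exons followed the same order: 0.554 in the pieces, 3.76 in the sequence shared with both, 1.65 in that shared with BHAM359 only and 0.755 in that shared with BHAM470 only. The 2 sets outside the domains of BHAM359 were thus those below 1 for islands and coding exons. Without BHAM359 in the rule the island fold of the resulting set was 1.13, so this direction rested on that library. Flanks within 2 kb of an island were 1.27-fold over their share in the pieces and 2.23-fold in the sequence shared with both. Promoters, taken as the 1000 bp upstream of each transcript start, were 1.23-fold and 2.64-fold. Introns made up 42.5% of the pieces' sequence (fold 1.15) and intergenic sequence 55.2% (fold 0.914). On chromosome 8 the folds of the pieces were 0.38 for islands, 0.516 for coding exons, 0.676 for promoters and 1.04 for intergenic sequence.

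**Figure D5:**
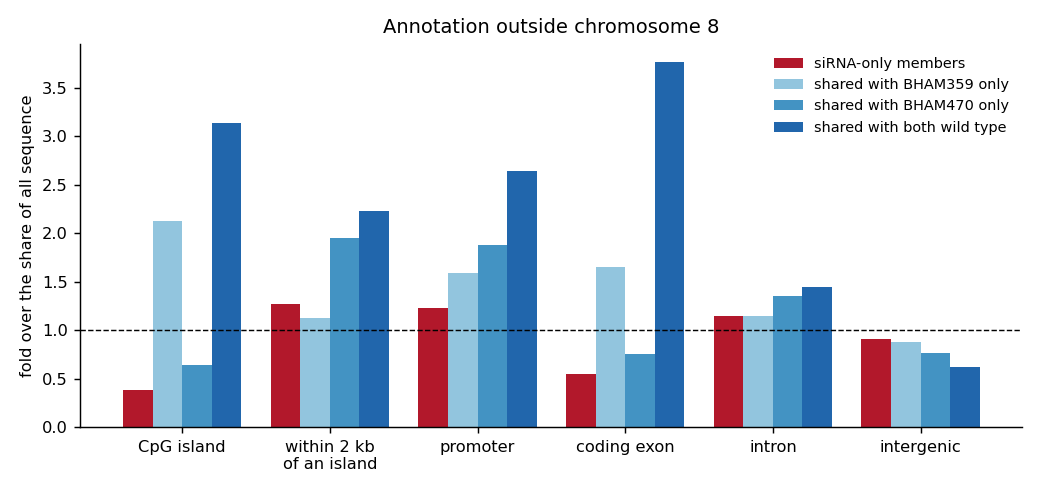
Fold of each annotation class over its share of all sequence outside chromosome 8, for siRNA-only pieces and for the sequence shared with 1 or both wild-type libraries; the dashed line marks 1. CpG islands stand at 0.389 and coding exons at 0.554 in the pieces, against 3.14 and 3.76 in the sequence shared with both wild-type libraries.

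Few genes had their start in a piece. Of 20336 protein-coding genes outside chromosome 8, 91 (0.447%) had the annotated start site in an siRNA-only piece, and 2268 (11.2%) had any siRNA-only sequence in the gene body. The count of start sites depended on each library of the rule: it was 149 without EAR003, 158 without BHAM479, 192 without EAR001, 363 without BHAM359 and 700 without BHAM470. On chromosome 8 a start site lay in a piece for 33 of 1082 genes (3.05%), and 355 (32.8%) had siRNA-only sequence in the body. Genes with a CpG island within 500 bp of the start made up 30 of the 91. Their rate was 0.279% of 10745 genes, and that of genes without an island 0.636% of 9591. At these start sites BHAM480 was enriched for 16 genes, unconfident for 56 and background for 19.

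The 15 genes whose start lay in the widest pieces held a range of functions. The widest piece contained the start of 1700001F09Rik and the next the start of Gm8127, neighbouring uncharacterized genes on chromosome 14. The piece at 1700001F09Rik (chr14:44015395-44052594) had a level of -20.1 in BHAM480, -2.53 in EAR003, 12.5 in BHAM479 and 10.4 in EAR001, against -38.9 in BHAM359 and -2.13 in BHAM470. EAR003 was thus called enriched there at a level below its own mean, and BHAM480 was far below its mean. Zfp640, a zinc finger gene, started in a piece of 10800 bp on chromosome 13 with 16.2 in BHAM480, 30.4 in EAR003, 37.3 in BHAM479 and 29.4 in EAR001, against -17.3 in BHAM359 and -3.87 in BHAM470. Its piece was wholly enriched in BHAM480, which stood well above both wild-type libraries, as did the selecting libraries. The -17.3 of BHAM359 recurred exactly at other pieces. It is that library's scaled mean with the sign reversed, so pulldown and input counts, as the score is read here, were equal there on average. The counts are not scaled for reads, of which BHAM359 had 45.9 M and the input 26.5 M. Xdh, which encodes the purine-oxidizing enzyme xanthine dehydrogenase, started in a piece of 6500 bp with levels of 0.99 in BHAM480, 13.7 in EAR003, 6.98 in BHAM479 and 5.08 in EAR001, against 1.30 in BHAM359 and -0.74 in BHAM470. There BHAM480 lay between the wild-type libraries.

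Dcakd and Nmt1, neighbours on opposite strands of which Nmt1 encodes an N-myristoyltransferase, shared a piece of 6100 bp on chromosome 11. Its level was -5.25 in BHAM480, 25.2 in EAR003, 16.2 in BHAM479 and 7.61 in EAR001, against -1.59 in BHAM359 and 1.94 in BHAM470. The 3 selecting libraries were high and BHAM480 was the lowest of all 6. Gtf2h4, a subunit of the transcription and repair factor TFIIH, gave 13.1 in BHAM480, 31.5 in EAR003, 18.9 in BHAM479 and 7.67 in EAR001, against -3.03 in BHAM359 and -0.42 in BHAM470. Cyp2a4, a cytochrome P450, had the lowest levels of the 15 in both control libraries. Its levels were 3.61 in BHAM480, 9.52 in EAR003, 2.37 in BHAM479 and 0.98 in EAR001, against -14.1 in BHAM359 and -6.74 in BHAM470. The selecting libraries were nevertheless above both wild-type libraries at Cyp2a4, the contrast that chose the pieces, and so was BHAM480.

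Among these 15 were 2 homeobox genes, which encode transcription factors of body patterning. Hoxc6 started in a piece of 5700 bp on chromosome 15, nearly all of it upstream (5491 bp). Its level was 11.5 in BHAM480, 15.7 in EAR003, 10.6 in BHAM479 and 14.4 in EAR001, against -3.98 in BHAM359 and 3.26 in BHAM470. Hoxb6 on chromosome 11 gave 14.1 in BHAM480, 21.8 in EAR003, 14.0 in BHAM479 and 12.5 in EAR001, against -7.16 in BHAM359 and -0.93 in BHAM470. At both genes the selecting libraries were above both wild-type libraries, the contrast that chose the pieces, and so was BHAM480. The Hoxb6 piece was wholly enriched in BHAM480. Ttll6, a tubulin ligase-like gene on the same chromosome, had the same 14.1 in BHAM480, with 23.1 in EAR003, 14.7 in BHAM479 and 10.6 in EAR001, against 10.1 in BHAM359 and 8.94 in BHAM470. Its wild-type levels were close to that of EAR001, although neither wild-type library was called enriched. Spert, Syde1, Tmem92-ps and Fam196b completed the 15, with pieces of 3800 to 5500 bp at which BHAM480 was unconfident. At Syde1 the wild-type library BHAM470 (7.99) was level with the control library EAR001 (7.96), and at Spert BHAM359 (7.39) was close to EAR001 (8.10).

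The genes with the most siRNA-only sequence were long, which a ranking by total sequence favours. The 15 genes of at least 10 kb with the most of it outside chromosome 8 held between 26.1 and 73.2 kb each, in 17 to 56 pieces. First was Accn1, an acid-sensing ion channel subunit on chromosome 11, with 50 pieces and 73.2 kb, or 6.73% of its body. The pieces in Accn1 had a level of 10.7 in BHAM480, 19.02 in EAR003, 15.4 in BHAM479 and 10.7 in EAR001, against -5.77 in BHAM359 and 1.42 in BHAM470, and 51.4% of their sequence was enriched in BHAM480. Next came the annotated model of Fgfr2, a fibroblast growth factor receptor, with 70.0 kb, 8.14% of it enriched in BHAM480. That model spans 3009 kb, the longest of the 15. Pieces in any other gene within the span are counted too, so the total need not belong to Fgfr2 itself. The level over the span was 5.77 in BHAM480, 19.8 in EAR003, 14.2 in BHAM479 and 6.65 in EAR001, against -4.12 in BHAM359 and -0.17 in BHAM470.

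Among these 15 the share of the body was largest in Itpr2, Rgl1 and Tshz2. Itpr2, a calcium release channel of the endoplasmic reticulum, had 50.1 kb (12.7%), with levels of 8.06 in BHAM480, 20.0 in EAR003, 12.9 in BHAM479 and 5.74 in EAR001, against -7.95 in BHAM359 and 0.93 in BHAM470. Tshz2, a zinc finger gene, had 53.5 kb (12.2%) and Rgl1, a regulator of Ral GTPases, 30.7 kb (12.3%). None of the pieces in Itpr2, Tshz2 or Rgl1 had a base enriched in BHAM480. Cacna1c, the pore subunit of an L-type calcium channel, had 47.1 kb, 27.1% of it enriched in BHAM480, with 9.63 in BHAM480, 21.7 in EAR003, 15.0 in BHAM479 and 10.6 in EAR001, against -4.62 in BHAM359 and -3.45 in BHAM470. The others were Pdzd2, Camk1d, Tmem132c, Gria1 (an AMPA glutamate receptor subunit), Slit3 (a secreted axon guidance cue), Aff3, Rora (a nuclear receptor), Eif4e3 (a cap-binding translation factor) and 1700112E06Rik. In all 15 genes the 3 selecting libraries were above both wild-type libraries, the contrast that chose the pieces. BHAM480 was above both in every one of them except Camk1d, where it was -0.93, between -8.29 in BHAM359 and 2.39 in BHAM470. This was not particular to these genes. Over all pieces outside chromosome 8 BHAM480 stood at 5.42, against -6.86 in BHAM359 and -2.31 in BHAM470.

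Genes on chromosome 8 carried more siRNA-only sequence than any of these. Wwox, an oxidoreductase gene, had 127.0 kb in 83 pieces, Zmat4 123.7 kb, the cadherin gene Cdh13 117.8 kb, and Pard3, a cell polarity gene, 116.1 kb. They were chosen as the longest totals there after their values were seen. BHAM480 was enriched over 99.0% of the pieces' sequence in Wwox and 100% in Cdh13, but over 33.0% in Zmat4 and 8.35% in Pard3. In Palld, an actin-binding gene with 105.4 kb, it was enriched over none. In Cdh13 the level was 19.3 in BHAM480, 25.4 in EAR003, 23.6 in BHAM479 and 24.6 in EAR001, against -6.59 in BHAM359 and -3.14 in BHAM470.

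Start sites of the gene lists examined seldom lay in a piece. Among interferon and RNA-sensing genes, which respond to foreign RNA, 1 of 23 outside chromosome 8 (Isg15) had its start in a piece. Among RNA interference and microRNA processing genes it was 0 of 13, among pluripotency genes 0 of 20, among early lineage genes 0 of 23, among DNA demethylation and repair genes 0 of 20 and among synaptic adhesion and long neuronal genes 0 of 32. Of 20 fibroblast markers, listed because only wild-type cultures had a feeder layer, 1 (Pdgfra) started in a piece. All stand beside the 0.447% of all genes, which amounts to less than 1 gene for any of these lists.

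Isg15, a ubiquitin-like protein induced by interferon, had its start in a piece of 2200 bp at chr4:155574470-155576669, of which 1742 bp lay upstream. The level was 11.5 in BHAM480, 28.2 in EAR003, 20.0 in BHAM479 and 11.7 in EAR001, against -11.3 in BHAM359 and -5.98 in BHAM470. The 3 selecting libraries were above both wild-type libraries, the contrast that chose the piece, and so was BHAM480, although unconfident there. Over all pieces outside chromosome 8 BHAM480 likewise stood above both, at 5.42 against -6.86 in BHAM359 and -2.31 in BHAM470. Pdgfra, a platelet-derived growth factor receptor, started in a piece of 1200 bp at chr5:75548058-75549257 that held 40.8 CpG per kb. Its level was 10.5 in BHAM480, 15.4 in EAR003, 11.1 in BHAM479 and 3.66 in EAR001, against -1.68 in BHAM359 and -0.535 in BHAM470. At Pdgfra, too, BHAM480 was above both wild-type libraries, although unconfident there, as were the selecting libraries above both.

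Within gene bodies the lists ranged on either side of the 11.2% of all genes. Such sequence lay in 5 of 23 interferon and RNA-sensing genes, among them Isg15, Stat2, Ddx58 and Mx2. Stat2, which carries the interferon signal to the nucleus, had the most, 2.88 kb or 12.9% of its body. Among RNA interference genes it lay in 4 of 13, namely Eif2c2 (an Argonaute), Xpo5 (which exports microRNA precursors), Tnrc6a and Tnrc6c, with 0.8 to 1.6 kb each. Pluripotency genes had none in 20, and the 2 on chromosome 8 had none either. Early lineage genes had it in 2 of 23 (Gata4 and Lefty2), and DNA demethylation and repair genes in 2 of 20. The second list's were Tet3, a TET dioxygenase, with 3.5 kb, and Dnmt3a, a DNA methyltransferase, with 1.3 kb. The synaptic and long neuronal genes had it in 6 of 32, but it took up 0.0442% of their summed bodies, against 0.797% over all genes. The corresponding share was 1.19% in the interferon list, 0.548% in the RNA interference list and 0.749% in the demethylation and repair list. Of the fibroblast markers, Pdgfra (5.74 kb) and the collagen gene Col5a1 (0.6 kb) held such sequence. On chromosome 8, where 32.8% of genes did, list genes with such sequence were Tlr3 (0.3 kb), the repair polymerase gene Polb (0.6 kb), Csmd1 (86.8 kb) and Wwox. The lists were not tested.

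The widest pieces lay mostly between genes. Outside chromosome 8, 7110 of all 13561 pieces were wholly intergenic, and 60.4% of all sequence was intergenic. Of the 10 widest outside chromosome 8, the 2 on chromosome 14 described above were genic, and the other 8, of 11500 to 16100 bp, were intergenic and 1814 bp to 76350 bp from the nearest protein-coding gene. The third widest, chr4:100277602-100293701, lay 54849 bp from Ube2u, was wholly enriched in BHAM480 and had levels of 16.0 in BHAM480, 15.9 in EAR003, 10.8 in BHAM479 and 7.58 in EAR001, against -3.20 in BHAM359 and -1.41 in BHAM470. The piece nearest a gene was at chr1:132809688-132822387, 1814 bp from the cytokine gene Il20. At chr15:83023197-83034696, 20174 bp from Cyb5r3, the piece was the most CpG-dense of the 10, with 26.1 CpG per kb. At chr17:54068221-54079720, near Sult1c1, BHAM480 was at -5.85, with 17.4 in EAR003, 14.6 in BHAM479 and 4.63 in EAR001, against -15.8 in BHAM359 and -7.05 in BHAM470.

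The 5 widest pieces wholly enriched in BHAM480 included some near or in well-known genes. Beyond the chromosome 4 piece and that of Zfp640 they were chr11:120181526-120190825, 16178 bp from the cytoskeletal actin gene Actg1, chr6:114707851-114716150 in an intron of the autophagy gene Atg7, and chr6:118158551-118165850, 10788 bp from the receptor kinase gene Ret. Near Actg1 the level was 18.8 in BHAM480, 41.8 in EAR003, 25.7 in BHAM479 and 15.1 in EAR001, against -11.2 in BHAM359 and 2.42 in BHAM470. In the Atg7 intron it was 14.6 in BHAM480, 24.0 in EAR003, 17.9 in BHAM479 and 12.1 in EAR001, against 1.38 in BHAM359 and -3.62 in BHAM470. Over all 1525 such pieces the selecting libraries were also higher than over the 11897 pieces with no base enriched in BHAM480: 24.2 against 18.8 in EAR003, 17.6 against 13.6 in BHAM479 and 10.9 against 7.62 in EAR001. Their CpG density, 10.2 and 10.0 per kb, was nearly the same.

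Regions enriched in the 3 siRNA libraries that touched no wild-type domain came to 0.177 Mb outside chromosome 8. The widest was chr11:60576023-60581222 (5200 bp) in Top3a, a DNA topoisomerase gene, with 13.5 in BHAM480, 14.1 in EAR003, 17.8 in BHAM479 and 7.55 in EAR001, against 1.18 in BHAM359 and 0.93 in BHAM470. The others were chr6:135771821-135775420 in an intron of Grin2b, an NMDA receptor subunit gene, chr11:56801623-56805022, 19866 bp from Gria1, chr4:99875602-99878701 in an intron of Ror1, and chr6:111598451-111601350, 81226 bp from Grm7. In the Grin2b intron the level was -3.92 in BHAM480, 9.82 in EAR003, 10.9 in BHAM479 and 22.3 in EAR001, against 0.65 in BHAM359 and -7.07 in BHAM470. Near Grm7 the closest wild-type domain was 20800 bp away, and the levels were -0.51 in BHAM480, 23.8 in EAR003, 12.7 in BHAM479 and 19.3 in EAR001, against -9.45 in BHAM359 and -6.61 in BHAM470. BHAM480 was enriched over none of these 5 regions.

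On chromosome 8 the 2 widest pieces, of 27400 and 27300 bp, lay in an array of 5S ribosomal RNA genes. They were chr8:126061067-126088466 and chr8:126115667-126142966, within the annotated span of Gm20388, a transcript model that runs over 4435 kb and many other genes. The array as annotated spanned 85.0 kb with 51 rRNA genes, of which 32 lay wholly in the 2 pieces. The pieces had 63.0% and 63.1% GC and 53.9 and 54.4 CpG per kb, and the window printed from the first comes from its centre. The first had a level of 21.1 in BHAM480, 51.1 in EAR003, 31.6 in BHAM479 and 19.9 in EAR001, against -13.0 in BHAM359 and 7.23 in BHAM470. How alike the copies of the array are was not measured. The authors kept only reads of mapping quality 15 or greater, so the values in such a repeated array are uncertain.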

How the data were processed

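DNA from J1 ES cells was pulled down for 5fC and sequenced as single ends. Per the labels, the authors aligned reads to mm9 with BWA 0.6.1 after CASAVA, and the study's methods state that reads of mapping quality 15 or greater were kept. The deposited files list, per library, domains called by rseg from 100 bp bins against the wild-type input. Each domain has a state and a deposited score, read here as the mean pulldown minus input count per bin. The file's other score was not used.

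Domains were intersected and subtracted by base pair. Levels are the length-weighted score minus the library's mean, times 1000 bins, per 1000000 uniquely placed reads, with totals from the study's read table. Genes came from GENCODE M1, and CpG islands (at least 200 bp, over 50% GC, ratio over 0.6) were called from the unmasked mm9 sequence, which also gave the printed windows. No test is given: set sizes, states, the wild-type contrast and the levels of the selecting libraries follow from the selection. Planned exact permutation tests of the chromosome 8 background and of TDG KD against siRNA control were left out for that reason, and 2 libraries against 2 allow no p below 0.333. Code was checked on simulated data.

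The pieces, the gene lists and the naming rules were chosen with earlier results of these data known. Named were the 10 widest pieces outside chromosome 8 and 3 on it, the 5 widest regions touching no wild-type domain, the 5 widest pieces wholly enriched in BHAM480, the 15 genes of at least 10 kb with the most siRNA-only sequence, the 15 with the start site in the widest pieces, and list genes with a start site in a piece. Some items that these rules name are not reported here. Alternatives were other length limits, stricter or wider domains, each library left out, other scalings and other islands. Python 3.11.15, NumPy and Matplotlib were used.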

Additional observations from a re-analysis of the deposited data

How the results depend on the processing

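The sizes depended strongly on where domains were drawn. The 16.0 Mb outside chromosome 8 became 1.91 Mb with BHAM480 required, 6.95 Mb with wild-type domains widened by 500 bp, 6.39 Mb without the weakest 25% of siRNA domains, 45.8 Mb without the weakest 25% of wild-type domains, and 0.177 Mb in regions touching no wild-type domain. In the same order the 91 start sites became 16, 36, 43, 365 and 1, and a piece lay within 1000 bp of the start of 460 genes. With 1 library left out the size was 26.7 Mb (BHAM479) to 92.2 Mb (BHAM470) and the start sites 149 (EAR003) to 700 (BHAM470). Without BHAM359 they were 28.0 Mb and 363, without EAR001 31.4 Mb and 192, without EAR003 32.4 Mb, and without BHAM479 158 start sites.

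The share on chromosome 8, 39.6%, was 62.9% with BHAM480 required, 60.6% in untouched regions, and 21.8% (without BHAM470) to 35.6% (EAR003) with a library left out. The share enriched in BHAM480, 12.0%, was 100% by construction with BHAM480 required, 22.6% with stricter siRNA domains, 7.64% in untouched regions, and 9.38% (EAR003) to 21.3% (BHAM470) with a library left out. The CpG island fold, 0.389, was 0.636 with stricter wild-type domains, 0.76 in untouched regions, and 0.329 (EAR003) to 1.13 (BHAM359, reversed) with a library left out, 0.603 without BHAM470. Other length limits, subtraction of unconfident wild-type sequence, and leaving out sequence with no wild-type domain listed, which was chosen after seeing the data, moved none of these beyond the limits used. The intergenic fold stayed below 1 throughout (0.794 to 0.955). The causes were not tested.

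TDG KD minus control in level, 1.41, changed sign as deposited (-0.161 reads per bin, not scaled for reads), as a percentile (-6.46), and with the replicate block by prefix in the BHAM pair (-8.63, against 11.4 in the EAR pair). Leaving out 1 library gave -5.62 (EAR003) to 8.44 (BHAM480), and -1.59 without EAR001. The chromosome 8 background difference, 3.74, was 7.17 with enriched and unconfident sequence included and 3.398 to 4.11 with 1 library left out. With 2 libraries per condition, 1 input and domain averages in place of reads, neither depth nor domain width can be separated from condition.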

Other observations

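Small noncoding RNA genes also held siRNA-only sequence. On chromosome 8 it lay in 12 of 73 annotated miRNA genes (16.4%), 11 of them wholly, and outside chromosome 8 in 11 of 1395 (0.789%), 9 of them wholly. For snoRNA genes the counts were 3 of 73 (4.11%) on chromosome 8 and 12 of 1385 (0.866%) elsewhere, for snRNA genes 6 of 58 (10.3%) and 10 of 1273 (0.786%), and for misc_RNA genes 1 of 33 (3.03%) and 2 of 425 (0.471%). For lincRNA genes the counts were 24 of 64 (37.5%) on chromosome 8 and 108 of 1168 (9.25%) elsewhere. For pseudogenes they were 10 of 110 (9.09%) and 48 of 3945 (1.22%). By the same count protein-coding genes stood at 32.8% on chromosome 8 and 11.2% elsewhere. All siRNA-only sequence covered 8.39% of chromosome 8 and 0.707% of the other autosomes. That is a share of sequence, whereas the share of genes touched also depends on their length. These classes were chosen after their values were seen and were not tested.

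Beyond Hoxc6 and Hoxb6, the 91 genes with a start site in a piece outside chromosome 8 included the homeobox genes En2, Hhex and Msx1, the germ cell gene Nanos2, the imprinted gene Grb10 and the hematopoietic cofactor gene Lmo2. They were named after the list was seen, with no test, and the share of all homeobox genes with a start in a piece was not counted. At En2 and Lmo2 the control library EAR001 (4.09 and 1.36) lay below the wild-type library BHAM470 (6.32 and 1.86). BHAM480 was above both wild-type libraries at Nanos2 (10.7, against 1.93 in BHAM359 and -0.25 in BHAM470) but not at En2, Hhex, Msx1, Grb10 or Lmo2.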
